A study of Mus musculus with 8 samples.

Results

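The genes described here encode the proteins of the mitochondrial ribosome, as far as their mouse symbols start with Mrpl (large subunit) or Mrps (small subunit) followed by a number. The annotation held 78 such protein-coding genes, of which 77 were listed among the 43629 genes with deposited counts, 48 of them Mrpl and 29 Mrps. Mrpl33 was not listed in the counts used here. It entered only the descriptions of gene positions, start regions, promoters and shared exon bases. All 78 genes were selected by symbol.

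Messenger RNA was sequenced from 3T3-L1 adipocytes, a mouse pre-adipocyte line that had been differentiated with insulin, dexamethasone, isobutylmethylxanthine and rosiglitazone, and that was treated on day 8 for 24 h. The 4 groups of 2 libraries each were left untreated, or received the p110α inhibitor A66 (2 µM), or 0.5 mM palmitate (a saturated fatty acid, bound to serum albumin), or palmitate together with A66. No group labelled as albumin alone or vehicle alone was present, so palmitate and its carrier cannot be told apart, and the published methods give another A66 dose and a DMSO vehicle, so that the dose is that of the labels. All cultures were of 1 line, and the libraries are called biological repeats in the methods without a further account of their origin, so p-values measure the spread between these samples.

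The mitochondrial ribosome sits in the mitochondrial matrix and translates the few messenger RNAs of the mitochondrial genome, which code for membrane subunits of the respiratory chain and of ATP synthase. Its RNAs are transcribed from mitochondrial DNA, while all of its proteins are encoded in the nucleus, made in the cytosol and imported. Some of the proteins have counterparts in bacterial ribosomes and others occur only in mitochondria. Symbols do not always give the place of a protein: the products of Mrps18a and Mrps30 are part of the large subunit, and the product of Mrps36 is a subunit of the 2-oxoglutarate dehydrogenase complex.

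Library totals ranged from 42247091 to 57529803 counts. The labelled cell type was borne out by its markers, of which 9 of 9 were detected, with a summed level of 16890 to 16900 CPM (counts divided by the TMM-normalised total of their library) in untreated cells, 16580 to 17190 after A66, 15090 to 15900 after palmitate and 14490 to 15470 after both. The summed level of 7 pre-adipocyte or fibroblast markers lay between 3677 and 4461 CPM, most of it from the collagen genes Col3a1 (2949 to 3545 CPM) and Col1a1. Pdgfra, Thy1 and Ly6a were also expressed, Cd34 was under 0.4 CPM and Dlk1 was at 0 in all libraries. Of 4 macrophage markers, Adgre1 was at 0 in every library and Ptprc in all but 1, Csf1r was at 0.128 to 0.278 CPM and Cd68 at 2.55 to 5.74 CPM. Cd68 was higher with palmitate plus A66 than with A66 (log2 0.91, adjusted p = 0.0014, edgeR), a comparison in which 6 of 9 adipocyte markers were called lower (median log2 -0.245) and 0 higher, beside 1.27% of all genes lower. The summed level of the adipocyte markers was lowest where palmitate and A66 were combined.

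Of the 77 listed genes, 75 were detected and tested, 47 Mrpl and 28 Mrps, with 273 to 7340 counts per gene and library. Mrpl53 and Mrps23 had 0 counts in all 8 libraries, which allows at most 0.0701 CPM in the library with the highest such limit (3 counts, covering counting error only). Of the 790 exon bases of Mrpl53, 695 lie within exons of Gm42688, a readthrough gene on the same strand that was counted at 8.11 to 10.85 CPM, whereas no gene overlapped Mrps23 in the annotation. The genes lay on 17 chromosomes, with 11 on chromosome 11 and 8 on chromosome 17.

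Levels differed widely between members and little between libraries. In untreated cells the Mrpl genes ranged from 2.97 to 108.8 CPM per kilobase of transcript (median 30.4, n = 47) and the Mrps genes from 5.91 to 136.9 (median 23.5, n = 28). Together the Mrpl genes held 0.169% to 0.182% of all counts and the Mrps genes 0.106% to 0.112%. For a single gene, the highest of the 8 libraries exceeded the lowest by a factor of 1.04 to 1.59, with a median of 1.16.

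**Figure D1:**
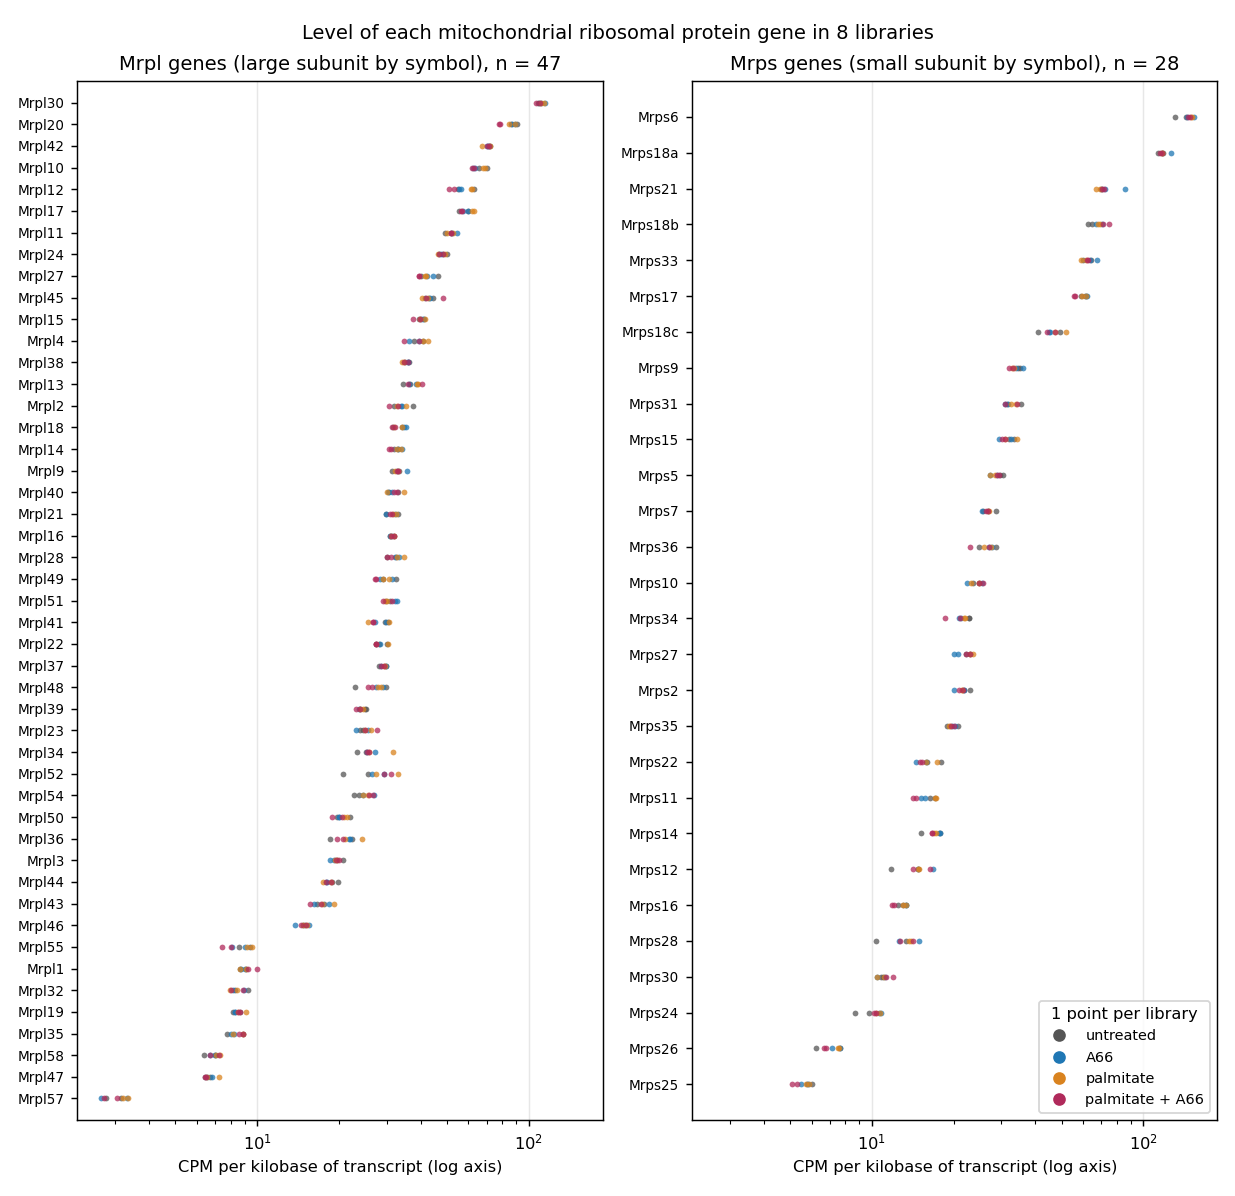
Level of the 75 detected genes in CPM per kilobase of transcript (log axis), 47 Mrpl on the left and 28 Mrps on the right, with 1 point per library coloured by group and genes ordered by their untreated mean. The points of a gene lie close together in comparison with the distance from Mrps6 at 136.9 to Mrpl57 at 2.97.

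The highest levels per kilobase in untreated cells belonged to Mrps6 (136.9 ± 9.02, SD, n = 2), a counterpart of bacterial S6, and Mrps18a (116.0 ± 3.69), and their ranges did not overlap. Next came Mrpl30 (108.8 ± 0.762), Mrpl20 (88.4 ± 3.58), Mrpl42 (71.7 ± 0.242) and Mrps21 (70.1 ± 0.627). Mrpl57 (2.97 ± 0.258) and Mrps25 (5.91 ± 0.179) were lowest, followed by Mrpl47 (6.58 ± 0.194), Mrpl58 (6.68 ± 0.436) and Mrps26 (6.92 ± 0.978), of which the last 3 did not differ beyond their spread. Mrpl58 encodes a peptidyl-tRNA hydrolase built into the large subunit. These orders rest on the median transcript length of each gene. With the longest transcript instead, Mrps6 and Mrps18a stayed highest and Mrpl57 lowest, but others moved. Mrpl48 (5.32) and Mrpl17 (5.88) then came below Mrps25 (5.91), which stayed lowest of the Mrps genes. For Mrps25 and Mrpl57 the median and the longest transcript length are the same, so this check could not alter their own levels. Mrpl17 went from rank 6 to 45 among the Mrpl genes and Mrpl11 from 7 to 37.

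The order of levels was nearly the same in every group. Spearman's rho with the untreated order over the 75 genes was 0.995 for A66, 0.993 for palmitate and 0.993 for the combination, a description across genes, which share libraries and lengths. The products of 3 genes, Mrps18a, Mrps18b and Mrps18c, belong to the bacterial S18 family. Per kilobase, untreated Mrps18a stood at 116.0 ± 3.69, Mrps18b at 63.7 ± 1.598 and Mrps18c at 45.2 ± 6.07 (SD, n = 2), and these ranges did not overlap.

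Many of the members start close to another gene. For 23 of 78 (29.5%), a protein-coding gene on the opposite strand started from 1000 bases upstream to 200 bases inside the member, compared with 7.92% of all protein-coding genes and 12.4% of those tested. Partners included genes of mitochondria, such as Sars2, the mitochondrial seryl-tRNA synthetase, 172 bases from Mrps12, and Ndufs6 of complex I, which shares 30 exon bases with Mrpl36 at their starts. Psma2, a proteasome subunit gene, started 75 bases from Mrpl32. Of the members, 33 shared exon bases with another gene, 25 of them with genes on the opposite strand only. Library preparation kept the strand, but whether the counting used it is not given in the sources used here. Reads from the shared bases may therefore have been counted for a member, for its partner or for neither. This holds for Mrpl12 (200 exon bases shared with the long non-coding RNA gene Gm16755), Mrpl10 (240 with Gm11574) and Mrps11 (173 with Mrpl46, another member).

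Start regions of the members were searched for letters bound by factors known for nuclear genes of mitochondria. In RefSeq promoters on GRCm38.p6, from 250 bases before to 50 after a start, 75 promoters of 69 members were found. The ETS letters CCGGAAG occurred on either strand in 34.7% of them, compared with 8.86% of all promoters and 16.9% of those of tested genes. The YY1 letters AAGATGGC occurred in 12 of 75 (16%, compared with 2.75% of all, 4.28% of tested), and the NRF1 palindrome in 4.0% (0.971% and 1.99%) or the NRF1 letters TGCGCATG, which can overlap the palindrome, in 8.0% (2.12% and 3.74%). The E-box CACGTG (9.33%, compared with 7.15% and 9.68%) and CCAAT (30 of 75 promoters, compared with 37.4% and 38.2%) were about as frequent as in tested genes. ETS letters occurred in 31.2% of Mrpl and 40.7% of Mrps promoters, and YY1 letters in 12.5% and 22.2%. Members that share a start region with each other count separately, and a match is no proof of binding.

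The start regions of 5 members are shown. Mrpl12, Mrpl10 and Mrps11 are the 3 members called lower in an average A66 effect that was added after the data had been seen. Mrpl52 and Mrps6 had the lowest p-values for palmitate against untreated cells. Each region runs from 150 bases before to 30 after the RefSeq start, on the plus strand as all 5 genes are read. Capitals mark matches to the letters above. The windows are chr11:120484487-120484666 for Mrpl12, chr11:97041432-97041611 for Mrpl10, chr7:78782981-78783160 for Mrps11, chr14:54426759-54426938 for Mrpl52 and chr16:92058186-92058365 for Mrps6 (GRCm38.p6).
Mrpl12: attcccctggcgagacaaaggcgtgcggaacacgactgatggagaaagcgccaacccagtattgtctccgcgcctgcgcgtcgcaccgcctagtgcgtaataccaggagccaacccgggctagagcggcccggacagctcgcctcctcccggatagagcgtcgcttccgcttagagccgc
Mrpl10: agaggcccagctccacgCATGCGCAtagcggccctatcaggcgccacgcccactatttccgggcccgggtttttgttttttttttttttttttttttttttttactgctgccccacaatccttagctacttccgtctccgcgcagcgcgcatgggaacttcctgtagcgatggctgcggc
Mrps11: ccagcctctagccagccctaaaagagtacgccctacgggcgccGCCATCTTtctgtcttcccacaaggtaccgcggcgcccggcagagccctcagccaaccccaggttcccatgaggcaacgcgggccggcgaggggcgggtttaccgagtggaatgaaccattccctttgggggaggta
Mrpl52: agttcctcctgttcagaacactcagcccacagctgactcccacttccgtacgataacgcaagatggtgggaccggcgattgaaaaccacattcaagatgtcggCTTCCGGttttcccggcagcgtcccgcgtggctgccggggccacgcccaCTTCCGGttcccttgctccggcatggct
Mrps6: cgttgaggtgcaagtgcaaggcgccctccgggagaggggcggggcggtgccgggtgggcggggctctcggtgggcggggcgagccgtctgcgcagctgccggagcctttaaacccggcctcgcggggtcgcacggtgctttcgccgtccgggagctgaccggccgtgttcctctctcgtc
Mrpl10 carries the shorter NRF1 letters on the reverse strand with their first base 133 before the start, Mrps11 the YY1 letters on the reverse strand 107 before it, and Mrpl52 the ETS letters on the reverse strand 47 before and again at base 2. Mrpl12 and Mrps6 hold no match in these windows. Mrpl12, Mrpl10 and Mrps11 thus had none of these letters in common.

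To ask whether inhibition of p110α alters the ribosomal protein genes, A66 was compared with untreated cells. No member passed an adjusted p of 0.05 in edgeR's quasi-likelihood test (0 of 75, against 1.84% of the 14158 genes tested, 1.07% higher and 0.77% lower), and DESeq2 called 0 as well (1.27% of all genes). At an unadjusted p under 0.05 there were 8 members, 6 higher and 2 lower, beside 12.8% of all genes (6.57% higher and 6.24% lower). The median log2 fold change was -0.003 for Mrpl and 0.006 for Mrps, beside -0.001 for all genes. For all 75 members the 95% confidence interval of the log2 fold change stayed within 0.5 either way, which held for 73.1% of all genes, so that larger changes lay outside the intervals of the members. In CPM, the groups did not overlap for 14 members that were higher with A66 and 12 that were lower, where 21.7% and 20.8% of all genes behaved so.

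Within these small differences the lowest p-values of the comparison went to Mrps6 among the small subunit genes and Mrpl10 among the large. Mrps6 was at 110.4 and 121.2 CPM in untreated cells and at 122.7 and 129.6 with A66. All A66 values lay above the untreated ones, but the untreated libraries were as far apart as the groups (log2 0.12 ± 0.047, SE, adjusted p = 0.258, edgeR). Of the 1533 exon bases of Mrps6, 305 are shared with the protein-coding gene Gm49711 on the same strand, which was not analysed here, and 159 with Slc5a3 on the same strand, an inositol transporter gene at 760.7 to 917.4 CPM that rose with A66 (log2 0.23, adjusted p = 0.00171, edgeR), and whether reads from the shared bases entered either count was not tested. Without untreated replicate 2, 5 members were called higher, among them Mrps6 (adjusted p = 0.00623) and Mrpl52 (0.0219), and without untreated replicate 1, 1 was called lower, so that the count of 0 depended on both untreated libraries. Calls over all genes rose likewise in these fits, from 261 to 635 without untreated replicate 2 and to 401 without untreated replicate 1.

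Among the 4 pairs of replicates, the untreated pair was the most distant over the members. Relative to the untreated mean, the median of the Mrpl genes was -0.042 in replicate 1 and 0.042 in replicate 2 (log2), and that of the Mrps genes -0.033 and 0.033, while all tested genes shifted by -0.0057 and 0.0057. The mean chi-square per member between replicates was 6.32 for the untreated pair, compared with 2.92 for A66, 2.94 for palmitate and 2.54 for the combination. Over all genes it was 6.33, 6.15, 8.99 and 7.80 in the same order, so that the palmitate pair was the most distant there. The A66 and palmitate medians differed from untreated cells by less than this distance.

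Palmitate was compared with untreated cells to see what the fatty acid does alone. No member was called by edgeR (0 of 75, against 1.17% of 14587 genes, 0.631% higher and 0.542% lower) or DESeq2 (0, against 1.34%). An unadjusted p under 0.05 was found for 5, with 4 higher and 1 lower, beside 12% of all genes (6.42% higher and 5.6% lower). The median log2 fold change was 0.014 for Mrpl and -0.016 for Mrps, beside 0.001 for all genes, and the interval stayed within 0.5 for 74 of 75 members. Groups did not overlap for 18 members higher and 8 lower, beside 22.3% and 18.5% of all genes.

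The strongest difference with palmitate was that of Mrpl52, a large subunit protein found only in mitochondria. It was at 8.70 and 10.7 CPM in untreated cells, 12.3 and 11.1 after A66, 11.5 and 13.8 after palmitate, and 12.2 and 13.1 after both. Both untreated libraries lay below the other 6. The palmitate difference did not pass the test (log2 0.37 ± 0.11, SE, adjusted p = 0.130, edgeR), although it passed with no filter on low counts (adjusted p = 0.0209). With 1 library left out it passed in 0 of 8 fits, and ran from 0.23 without palmitate replicate 2 or untreated replicate 1 to 0.52 without untreated replicate 2 (adjusted p = 0.464, 0.615 and 0.0575). Mrps5, whose product lies where messenger RNA enters the small subunit, went the other way. It stood at 72.8 and 74.3 CPM in untreated cells, 71.0 and 67.1 after A66, 66.9 and 69.5 after palmitate, and 72.3 and 71.2 after both, and its palmitate difference was not called (log2 -0.12 ± 0.046, adjusted p = 0.272, edgeR). Untreated libraries lay below all 6 treated ones for 6 members (Mrpl34, Mrpl52, Mrpl54, Mrps6, Mrps18b and Mrps24) and above all 6 for 5 (Mrpl39, Mrpl44, Mrps2, Mrps5 and Mrps34), beside 6.27% and 5.88% of all genes tested. These counts, 8% and 6.67% of the 75, were near that background.

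**Figure D2:**
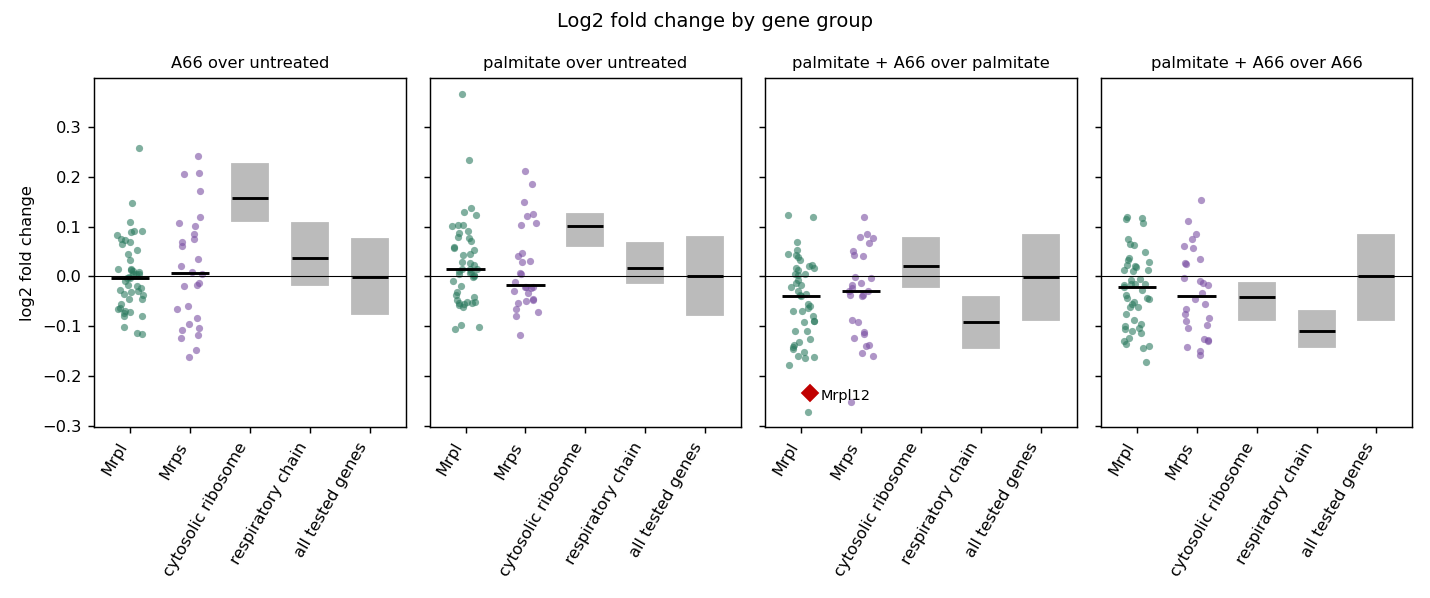
Log2 fold change in 4 comparisons between groups. Points are single Mrpl (47) and Mrps (28) genes with their median as a line, the red diamond is the gene with an adjusted p under 0.05 in edgeR (Mrpl12, -0.23), and grey boxes span the first to the third quartile, with the median as a line, for cytosolic ribosomal protein genes, respiratory chain genes and all tested genes. The clouds of Mrpl and Mrps genes centre within 0.04 of 0 in every comparison.

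Adding A66 to palmitate was the comparison in which a member was called. Of 75 members 1, Mrpl12, fell and 0 rose (edgeR, against 1.84% of all genes called lower and 2.81% called in either direction), and DESeq2 called 1 (2.71% of all genes). The share of all genes called higher was 0.973%. At an unadjusted p under 0.05 there were 13 members, 12 of them lower and 1 higher, beside 14.4% of all genes (7.61% lower and 6.79% higher). The median log2 difference was -0.040 for Mrpl and -0.030 for Mrps, beside -0.001 for all genes. Below 0 lay 31 of 47 Mrpl and 20 of 28 Mrps, beside 7335 of all 14587 genes. The groups did not overlap for 33 members lower with both agents and 10 higher, beside 23.3% and 21.1% of all genes, so that the lower side was more frequent among the members than over all genes. No test of this share was made.

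Mrpl12 encodes the flexible stalk protein of the large subunit, which receives the translation factors, and its base on the ribosome is the product of Mrpl10. Mrpl12 was at 80.5 and 81.1 CPM with palmitate and at 69.8 and 67.2 with palmitate plus A66, a fall by 0.23 on the log2 scale (SE 0.052, adjusted p = 0.0124, edgeR). In untreated cells it was at 72.0 and 82.7 CPM and with A66 at 74.3 and 72.7. Both libraries with the combination lay below the other 6, but untreated replicate 1 lay below both A66 libraries. The call was lost without palmitate replicate 2 (adjusted p = 0.0929) and without palmitate plus A66 replicate 2 (adjusted p = 0.137), and the fold change kept its sign in every such fit. With A66 alone the log2 difference of Mrpl12 from untreated cells was -0.08 ± 0.053 (adjusted p = 0.585), and the difference between both A66 effects, the interaction, was -0.15 ± 0.074 (adjusted p = 0.633, edgeR), so the effect of A66 was not shown to depend on palmitate. The interaction of Mrpl12 ran from -0.06 without untreated replicate 1 to -0.25 without untreated replicate 2 and passed in 0 of 8 such fits. In the comparison in which Mrpl12 fell, 3 of 9 adipocyte markers (Cidec, Slc2a4 and Retn) were called lower and 0 higher (median log2 -0.149, beside 1.84% of all genes lower). Of 6 tested pre-adipocyte or fibroblast markers, 4 lay below 0 and 2 above. The collagen gene Col1a1 was called lower (log2 -0.33, adjusted p = 0.000175, edgeR), while Ly6a was higher without a call (0.37, adjusted p = 0.0511, edgeR). DESeq2 called 2 of the 6. The part of these markers in the fall of Mrpl12 was not tested.

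Mrpl10 was at 80.4 and 85.9 CPM in untreated cells, 76.4 and 77.5 after A66, 83.3 and 84.8 after palmitate, and 76.98 and 75.9 after both. Mrps11, a counterpart of bacterial S11 in the small subunit, was at 17.3 and 18.0 CPM in untreated cells, 16.04 and 16.6 after A66, 18.2 and 18.1 after palmitate, and 15.0 and 15.4 after both. For each of these genes, all 4 libraries with A66 lay below all 4 without it. Against palmitate alone neither passed (Mrpl10 log2 -0.13 ± 0.044, adjusted p = 0.122, and Mrps11 -0.25 ± 0.077, adjusted p = 0.0911, edgeR).

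**Figure D3:**
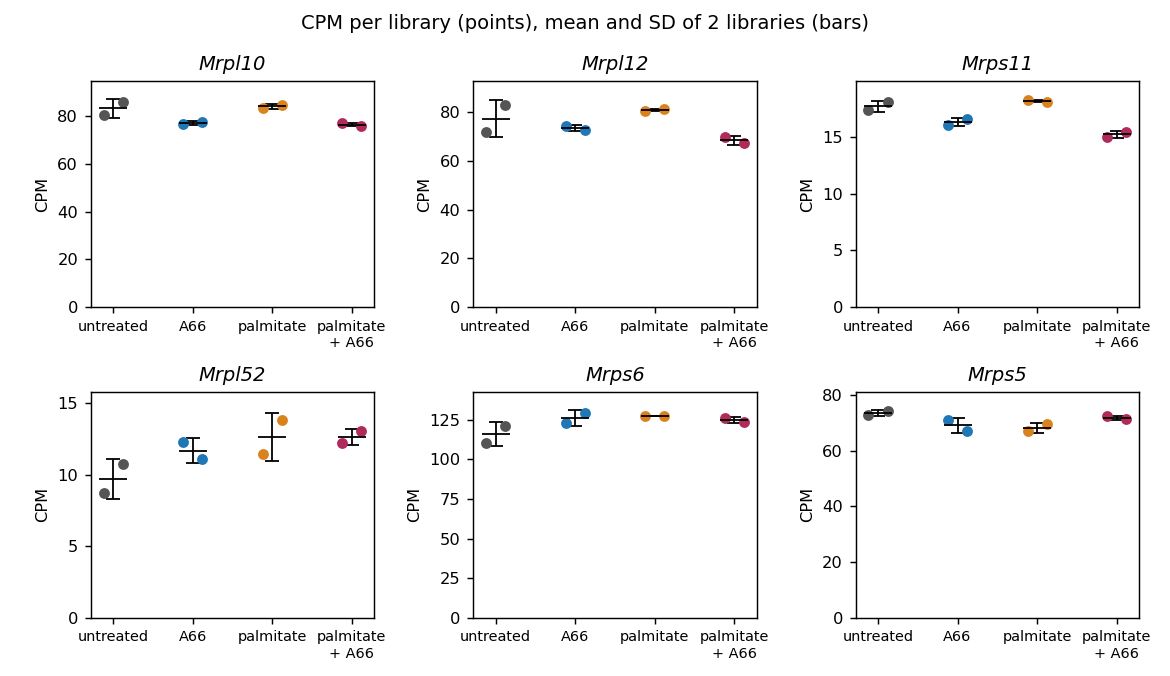
CPM of 6 genes in each of the 8 libraries (points), with the mean and SD of the 2 libraries of a group (bars), and vertical axes from 0. Mrpl10 and Mrps11 were lower in the 4 libraries with A66, Mrpl12 was lowest at 67.2 and 69.8 CPM with palmitate plus A66, and Mrpl52 was lowest in the untreated libraries.

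The effect of A66 averaged over cells without and with palmitate, an analysis added after these values had been seen, used all 8 libraries. It called 3 members lower and 0 higher in edgeR, against 2.8% of 14587 genes lower and 4.97% in either direction. In the higher direction 2.17% of all genes were called. DESeq2 called 2 members (4.59% of all genes). At an unadjusted p under 0.05 there were 12 members, 2 higher and 10 lower (17.9% of all genes, 8.51% and 9.35%). The 3 called by edgeR were Mrpl12 (log2 -0.16 ± 0.037, adjusted p = 0.0115), Mrpl10 (-0.13 ± 0.031, adjusted p = 0.0186) and Mrps11 (-0.19 ± 0.055, adjusted p = 0.0482). DESeq2 gave adjusted p = 0.0702 for Mrps11. When libraries were left out 1 at a time, Mrpl12 passed in 5 of 8 fits, Mrpl10 in 2 and Mrps11 in 0, with every log2 value below 0. Their printed start regions held different letters, those of NRF1 in Mrpl10, those of YY1 in Mrps11 and none in Mrpl12. The share of members called, 3 of 75, was close to that of all genes. Of 9 adipocyte markers, 3 were called lower and 0 higher in this average (edgeR). Of 6 tested pre-adipocyte or fibroblast markers, 1 was called lower (Col1a1) and 1 higher (Ly6a). The part of these markers in the members' calls was not tested. In the same average, 34 of 47 Mrpl and 16 of 28 Mrps lay below 0, beside 7447 of all 14587 genes (median log2 -0.034 and -0.022, beside -0.002 for all genes). Without untreated replicate 2 the Mrpl median was -0.0046 and the Mrps median 0.013. In that average 4 members, Mrpl10, Mrpl39, Mrps11 and Mrps34, were lower in all 4 A66 libraries than in all 4 others, while 1, Mrps21, was higher (4.02% and 3.91% of all genes). The corresponding average for palmitate called 0 members (edgeR, against 5.05% of all genes, 2.73% higher and 2.32% lower, and DESeq2 0, against 4.53%), with 8 at an unadjusted p under 0.05 (3 higher and 5 lower, beside 17.6% of all genes, 8.87% and 8.77%) and the lowest adjusted p for Mrpl52 (log2 0.24 ± 0.078, adjusted p = 0.0822). Groups did not overlap there for 0 members higher and 1 lower, Mrps9, beside 4.46% and 3.32% of all genes.

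Palmitate plus A66 against A66 alone shares the libraries of the combination with the comparison to palmitate. No member was called (0 of 75, edgeR, against 2.73% of all genes, 1.46% higher and 1.27% lower, and DESeq2 0, against 2.78%). An unadjusted p under 0.05 was found for 10, with 9 lower and 1 higher (14.6% of all genes, 7.19% lower and 7.36% higher). The medians were -0.022 for Mrpl and -0.039 for Mrps beside 0.000 for all genes. The groups did not overlap for 28 members lower and 9 higher, beside 23.7% and 22.9% of all genes. Its lowest p belonged to Mrpl20, a counterpart of the bacterial assembly protein L20, at 42.4 and 44.9 CPM in untreated cells, 43.0 and 43.9 after A66, 44.1 and 41.8 after palmitate, and 38.5 and 38.6 after both. The libraries with both agents were the 2 lowest of 8, and the difference did not pass (log2 -0.17 ± 0.054, adjusted p = 0.0927, edgeR). The interaction of A66 and palmitate called 0 members (edgeR, against 0.00686% of all genes, and DESeq2 0, against 0.0411%), with 6 at an unadjusted p under 0.05, 1 above and 5 below 0 (7.92% of all genes, 3.56% and 4.35%). Its intervals were wider, within 0.5 for 67 of 75 members, so that the precision was less for this contrast.

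Mrpl and Mrps genes, taken by symbol, were then set against each other within each library. Summed over genes, the log2 ratio of Mrpl to Mrps level per kilobase was 0.64 and 0.65 in untreated cells, 0.60 and 0.61 after A66, 0.63 and 0.65 after palmitate, and 0.61 and 0.59 after both. The 4 libraries with A66 lay below the 4 without it. The gap between both sets (0.608 to 0.626) was smaller than the distance between the palmitate replicates (0.626 to 0.654). On the linear scale the ratio ran from 1.51 to 1.52 with A66 and from 1.54 to 1.57 without. The separation was also seen in sums of CPM not divided by length (1.585 to 1.601 against 1.61 to 1.63). It was not seen with geometric means (log2 -0.056 to -0.027 against -0.041 to -0.013), which weight all genes alike, nor without the 3 most abundant genes of each subunit, where palmitate plus A66 replicate 1 (0.979) exceeded untreated replicate 1 (0.973). With Mrps18a and Mrps30 moved to the large subunit and Mrps36 left out, a setting added after the data had been seen, the libraries with A66 lay at 0.961 to 0.981 and the others at 0.984 to 1.014, still apart but by less. Summed Mrpl levels were 1696 and 1801 CPM in untreated cells, 1759 and 1739 after A66, 1767 and 1775 after palmitate, and 1704 and 1718 after both. Summed Mrps levels were 1052 and 1111, 1099 and 1090, 1098 and 1090, and 1067 and 1084 CPM in the same order. In both sums the untreated replicates were the lowest and the highest of the 8 libraries.

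**Figure D4:**
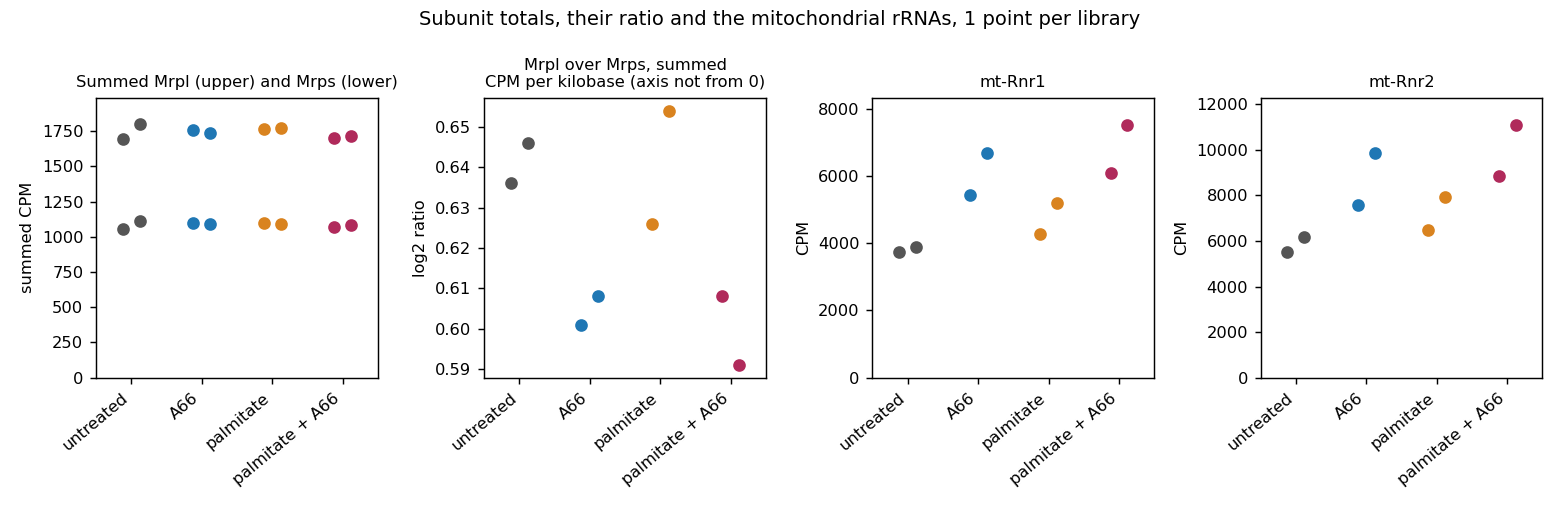
From left to right, summed CPM of the Mrpl (upper points) and Mrps genes (lower points), the log2 ratio of their summed CPM per kilobase (this axis does not start at 0), and CPM of mt-Rnr1 and mt-Rnr2, with 1 point per library. The ratio was 0.59 to 0.61 in libraries with A66 and 0.63 to 0.65 in those without, and mt-Rnr1 was at 5416 CPM or more in libraries with A66 and at 5180 or less in the others. For mt-Rnr2 these sets overlapped, with A66 replicate 1 at 7595 CPM and palmitate replicate 2 at 7942 CPM.

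The RNA part of the ribosome was also present in the counts. Mt-Rnr1, the RNA of the small subunit, was at 3748 and 3883 CPM in untreated cells, 5416 and 6683 after A66, 4265 and 5180 after palmitate, and 6072 and 7511 after both. It rose with A66 (log2 0.66 ± 0.057, adjusted p = 5.89e-07, edgeR) and with A66 on top of palmitate (0.53 ± 0.088, adjusted p = 0.0013, and 0.0983 in DESeq2). Mt-Rnr2, the RNA of the large subunit, was at 5522 and 6154, 7595 and 9861, 6477 and 7942, and 8853 and 11090 CPM in the same groups. It rose with A66 in edgeR (0.58 ± 0.070, adjusted p = 4.07e-05, but 0.171 in DESeq2) and on top of palmitate (0.47 ± 0.099, adjusted p = 0.00817, but 0.311 in DESeq2). Against untreated cells, palmitate gave 0.30 ± 0.088 and 0.30 ± 0.099 for these RNAs (adjusted p = 0.114 and 0.177, edgeR). For mt-Rnr1 this difference passed with only the 4 libraries compared in the fit (adjusted p = 0.0298), without palmitate replicate 1 (log2 0.43, adjusted p = 0.0185) and without either library of palmitate plus A66 (0.0344 and 0.041), but not without palmitate replicate 2 (0.16, adjusted p = 0.496). The mt-Rnr2 call on top of palmitate was lost without palmitate replicate 1 (adjusted p = 0.0952) and without palmitate plus A66 replicate 2 (adjusted p = 0.175). These 2 fits put mt-Rnr2 at 0.33 and 0.30, and mt-Rnr1 at 0.39 and 0.37, while without palmitate replicate 2 mt-Rnr2 was at 0.63 and mt-Rnr1 at 0.68. With A66 alone, leaving out 1 library left a group with 1 library, so only effect sizes are given. Mt-Rnr2 ran from 0.38 without A66 replicate 2 to 0.76 without A66 replicate 1, and mt-Rnr1 from 0.50 to 0.81 in the same fits. In the added A66 average both RNAs rose (log2 0.59 and 0.52, adjusted p = 4.03e-06 and 5.41e-05, edgeR) and DESeq2 called both. In the added palmitate average both passed in edgeR (adjusted p = 0.0278 and 0.0431) and DESeq2 called 0. Replicate 2 was higher than replicate 1 in each group for both RNAs. The libraries were selected for poly(A) tails with oligo-dT, and the part of that selection in these levels was not tested. The protein genes showed no difference of this size: with A66 alone their log2 values lay between -0.16 and 0.26.

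Other genes of mitochondrial translation gave few calls as well. Of 6 mitochondrial ribosomal proteins with other symbols, among them Dap3 and Ptcd3 of the small subunit, 0 were called in any of the 5 planned comparisons, and Chchd1 came nearest (A66 log2 0.27 ± 0.074, adjusted p = 0.0626, edgeR; 2 of 6 at an unadjusted p under 0.05, DESeq2 0). Of 15 translation factors and messenger RNA stabilising proteins, 0 were called in those comparisons, and 2 of 15 had an unadjusted p under 0.05 with A66 (DESeq2 0), beside 12.8% of all genes (1.84% called). Of these 15, 12 lay below 0 with A66, 12 with A66 on top of palmitate and 14 in the added average. Over all genes, 7132 of 14158, 7335 of 14587 and 7447 of 14587 lay below 0 in the same order. In the added average over palmitate, Gfm1, the elongation factor that moves the ribosome along and binds at the stalk, was called lower (log2 -0.12 ± 0.030, adjusted p = 0.0179, edgeR), 1 of 15 beside 2.8% of all genes called lower and 4.97% called in either direction. It was at 99.1 and 96.7 CPM in untreated cells, 86.6 and 88.4 after A66, 95.2 and 91.5 after palmitate, and 88.9 and 87.5 after both, and all A66 libraries lay below all others. None of 25 ribosome assembly factors was called in these comparisons (edgeR 0, at most 2 at an unadjusted p under 0.05, DESeq2 0).

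Both neighbouring machineries gave other counts. Of 85 cytosolic ribosomal protein genes, 42 rose and 0 fell with A66 (median log2 0.157), beside 1.07% of all genes higher and 0.77% lower. The published study instead linked ribosomal proteins to its genes downregulated by A66, and the source of this difference was not tested. Of the same 85, 0 were called with palmitate (0.101, beside 1.17% of all genes, and 44 at an unadjusted p under 0.05, beside 12%, DESeq2 1), 1 rose when A66 was added to palmitate (0.020, beside 0.973% higher) and 1 fell when palmitate was added to A66 (-0.042, beside 1.27% lower). Of 88 respiratory chain and ATP synthase genes, 4 rose with A66 (median 0.037, beside 1.07% of all genes), 0 were called with palmitate (0.017, 13 at an unadjusted p under 0.05, DESeq2 0), 12 fell with A66 on top of palmitate (-0.091, beside 1.84%) and 11 fell with palmitate on top of A66 (-0.109, beside 1.27%). The Mrpl and Mrps medians in these 4 comparisons lay between -0.040 and 0.014. The lists were not tested against each other.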

How the data were processed

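RNA-seq libraries of 8 cultures of 3T3-L1 adipocytes in 4 groups of 2 were analysed. Per the labels and methods, poly(A) RNA was sequenced with a stranded kit, reads were aligned to GRCm38 with TopHat2 2.0.11 and counted with HTSeq, and the authors deposited raw counts per Ensembl gene. Strand setting and annotation release of the counting are not given in the sources used here. The deposited table also held the authors' own DESeq2 comparison (mean of normalised counts, log2 fold change and its standard error, Wald statistic, p-value and adjusted p), which was not used.

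Symbols, coordinates and transcript lengths came from GENCODE M21. Counts were analysed in R 4.3.3 with edgeR 4.0.16 (TMM, filterByExpr with a minimum count of 10, glmQLFit and glmQLFTest, two-sided, Benjamini-Hochberg adjustment over all genes tested, 0.05). A66 was compared with untreated cells in 4 libraries (14158 genes), and the other contrasts, the interaction included, were fitted on 8 libraries (14587 genes). The averaged effects of A66 and of palmitate were added after the data had been seen. Members and gene lists were chosen with earlier results of these data known. Genes named for a comparison were the 3 Mrpl and the 3 Mrps with the smallest p, of which not all are given. Genes called or separated by group were named in addition, after their values were seen. Alternatives were RLE or library-size scaling, DESeq2 1.42.0, other filters on low counts, other libraries in the fit, a replicate block, a length correction (loess span 0.4) and leaving out each library. The procedure was tested on simulated data. Library totals were 42247091 to 57529803 counts, and 3 counts correspond to 0.0520 to 0.0701 CPM. The sequences came from RefSeq tables, and protein sequences were not used here.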

Additional observations from a re-analysis of the deposited data

How the results depend on the processing

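The count of members called was unchanged by scaling, DESeq2 and the length correction in the 5 planned comparisons, and by other libraries in the fit in the 4 comparisons of groups (not run for the interaction). With no filter on low counts, 1 member (Mrpl52) was called higher with palmitate and 1 in the palmitate average, and the calls over all genes rose from 261, 171, 410 and 398 to 459, 396, 652 and 664 in the 4 comparisons of groups. Palmitate plus A66 against A66 gave 689 calls over all genes with only its 4 libraries, and the interaction, with 1 call, gave 2 (library size only), 6 (DESeq2), 91 (no filter), 3 (replicate block) and 2 (length correction). In the A66 average, Mrpl12 and Mrpl10 passed under all 7 alternatives (highest adjusted p = 0.0125 and 0.0214), whereas Mrps11 missed the threshold under RLE (adjusted p = 0.0501), DESeq2 (0.0702), no filter (0.0578) and at least 10 counts in every library (0.0517). With Mrps18a and Mrps30 in the large subunit and Mrps36 left out, the Mrpl minus Mrps difference of medians went from -0.012 to -0.035 for the interaction and changed sign from -0.011 to 0.0083 for the A66 average.

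The log2 ratio of summed Mrpl to Mrps level relative to untreated cells became -0.017 for A66 and -0.023 for palmitate plus A66 in CPM not per kilobase, -0.012 and -0.006 with geometric means, and -0.014 and -0.014 without the 3 most abundant genes of each subunit, where palmitate gave 0.013. With the protein's known place, each of these differences from untreated cells moved by less than 0.0121, the pooled SD between replicates. For the 6 members with the smallest p in each comparison, the ones for which alternatives were run, no log2 value changed sign. They were picked by p in the same libraries, so this does not speak for the other members.

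Leaving out 1 library at a time gave the following ranges. With A66, 0 to 5 members were higher and 0 to 1 lower (98 to 635 of all genes called), the Mrpl median ran from -0.029 to 0.040, the Mrps median from -0.036 to 0.021 and their difference from -0.016 to 0.018. With palmitate, these medians ran from -0.025 to 0.046 and from -0.027 to 0.045 and their difference from -0.0050 to 0.030 (71 to 245 of all genes called, lowest without palmitate replicate 1). For palmitate plus A66 against palmitate, 0 to 1 members were lower (147 to 494 of all genes called) and the difference ran from -0.032 to 0.010. Against A66, the Mrps median ran from -0.069 to -0.023 and the difference from -0.014 to 0.046 (107 to 502 of all genes called, lowest without A66 replicate 1). For the interaction, the medians ran from -0.092 to -0.0075 and from -0.082 to -0.025 and their difference from -0.045 to 0.035 (0 to 10 of all genes called). In the A66 average, 0 to 1 members were higher and 0 to 2 lower (412 to 779 of all genes called), the Mrpl median ran from -0.046 to -0.0046, the Mrps median ran from -0.026 to 0.013 and the difference from -0.027 to 0.0039. For palmitate, mt-Rnr1 ran from 0.16 to 0.43 and mt-Rnr2 from 0.15 to 0.44, and mt-Rnr2 passed for palmitate plus A66 against A66 without A66 replicate 2 (0.40, adjusted p = 0.0474). In the palmitate average, 0 to 1 members were higher (372 to 876 of all genes called) and the Mrps median ran from -0.037 to 0.0099. The cause of these shifts was not tested.

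Same-numbered replicates did not deviate together (correlations from -0.018 to 0.048 over 14587 genes), so the numbers were not taken as pairs. With the replicate number as a block, Mrpl12 was at -0.23 for palmitate plus A66 against palmitate (adjusted p = 0.0113), and the same counts of members were called in the 5 planned comparisons, while mt-Rnr1 and mt-Rnr2 passed with palmitate (adjusted p = 0.00246 and 0.000904), as they did with no filter on low counts (mt-Rnr1 also with only the 4 libraries compared, 0.0298), and mt-Rnr2 passed for palmitate plus A66 against A66 (adjusted p = 0.0176). With 2 libraries per group, the median SE of members' log2 differences was 0.061 to 0.087 in the 5 planned comparisons and 0.043 in the averages. Differences of several times the SE, such as Mrpl52 with palmitate (0.37, SE 0.111), missed the adjusted threshold.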
